A study of Mus musculus with 6 samples.

Results

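The genes described here encode the proteins of blood clotting and of clot removal, 33 genes in all, among them F12, the gene for coagulation factor XII. They were chosen by name from the pathway they belong to, with earlier results of these data known. Of the 33, 32 had at least 1 probe set whose platform annotation names that gene alone, out of 12393 genes measured that way, and Cpb2, which encodes a carboxypeptidase that slows fibrinolysis, was not analysed here. A probe set is a group of short array probes against 1 transcript. The 32 genes had 40 probe sets among 22626, and where a gene had several, the one with the highest mean over all 6 arrays stands for it.

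The samples were 6 liver tumours of male mice, each hybridized to its own Affymetrix expression array. They are taken here as coming from 6 separate mice, which the labels show only by different titles. The mice had received 1 intraperitoneal injection of N-nitrosodiethylamine (DEN), a liver carcinogen, at 10 µg per g body weight and 14 days of age, and tumours were collected at 28 weeks. Tumours came from 3 wild-type mice and from 3 Alb/AEG-1 transgenic mice, which carry added AEG-1 (astrocyte elevated gene-1, encoded by Mtdh), made by injection into B6CBAF1/J embryos. Both groups are labelled with the CD-1 background strain. In the name of the transgene, Alb stands for albumin, whose promoter is active in hepatocytes. The labels give neither the number of founder lines nor the species of the transgene's AEG-1, and no group without DEN is used here. Mtdh itself read 9.32, 9.03 and 9.16 in wild-type against 9.57, 9.40 and 9.15 in Alb/AEG-1 tumours, overlapping, and whether its mouse probes detect the transgene is not given in the sources used here. The comparison asks which of these RNAs the transgenic tumours hold at another level than the wild-type ones.

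Clotting is a cascade in which inactive proteases, most of them made by hepatocytes, activate one another. Tissue factor starts it outside the vessel and factor XII starts the contact branch, both lead to thrombin, and thrombin turns fibrinogen into fibrin. Antithrombin, protein C and tissue factor pathway inhibitor hold the cascade back, and plasmin, formed from plasminogen, dissolves the fibrin. Factor XII has been reported as a target of AEG-1, and the arrays measure RNA and not protein.

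No gene of the pathway differed past the threshold between Alb/AEG-1 and wild-type tumours. The differences, given throughout as Alb/AEG-1 minus wild type on the deposited log2 scale, ran from -0.20 for Tfpi to 0.20 for Fgb, with 17 genes above 0 and 15 below it. With limma, 0 of the 32 passed an adjusted p of 0.05 over all probe sets (lowest adjusted p = 0.611), where 0.00442% of all probe sets passed, which is 1 probe set. At an unadjusted p below 0.05 there was 1 of the 32 genes (3.12%), Tfpi, against 8.33% of all genes. The median difference was 0.0041 over the 32 genes and -0.0081 over all genes, and the median size of the difference was 0.09 and 0.10. Among the 3 mice with numbers below 100, described further on, the median difference was 0.07, and among the other 3 it was -0.03.

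The fit also gives an interval for each difference of array levels, from the spread between arrays. Such an interval does not cover any narrowing of differences in dim or very bright genes. For 29 of the 32 genes (90.6%) the 95% interval of the difference lay within 1.5-fold in both directions, as it did for 86.7% of all genes, and for all 32 it lay within 2-fold. The 3 genes with wider intervals were F12, F3 and Tfpi2. The arrays of 1 group lay wholly beyond those of the other for 3 of the 32 genes (9.38%), against 15.1% of all genes. These 3 were Kng1 and Vwf, higher in every Alb/AEG-1 tumour, and Tfpi, lower in every one. Neither share stands far from that of all genes.

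**Figure D1:**
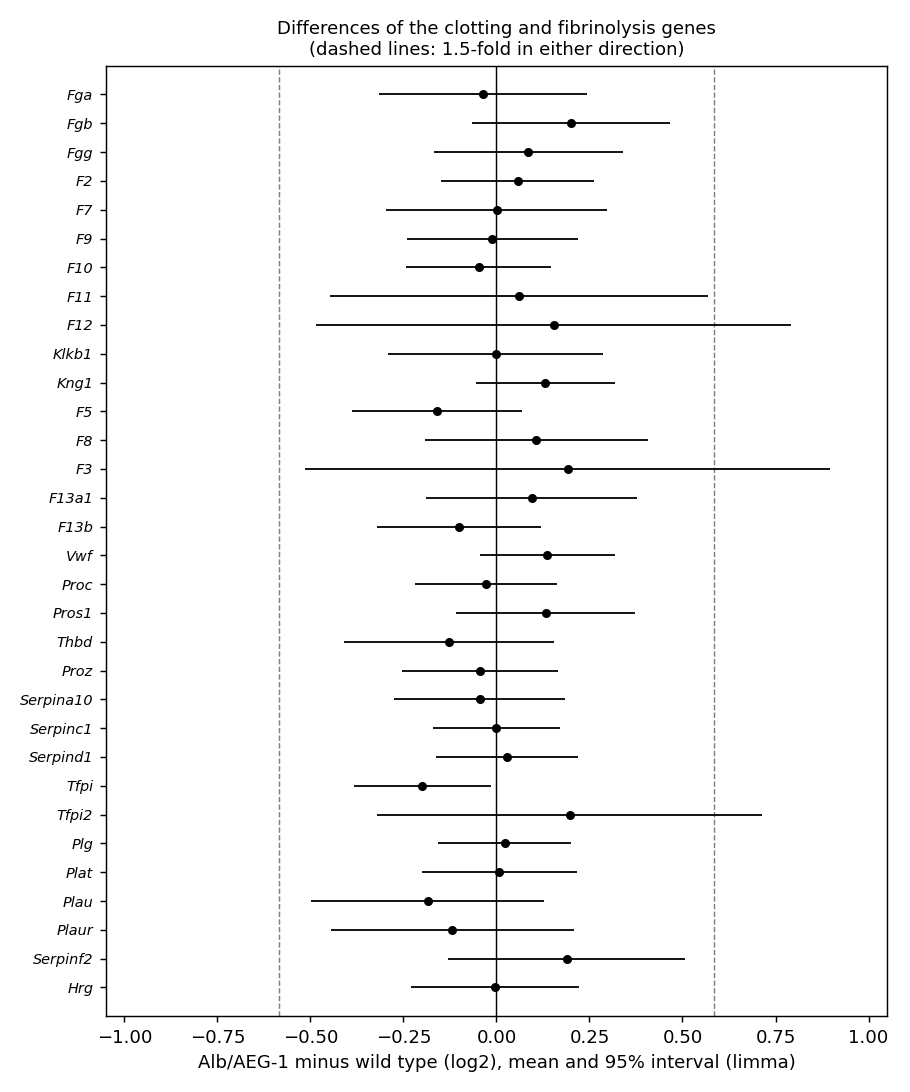
Difference between Alb/AEG-1 and wild-type tumours (log2, horizontal axis) for the 32 measured genes of clotting and fibrinolysis, listed by role; points are the differences of the means of 3 arrays each and bars their 95% intervals from limma. The intervals of all genes but F12, F3 and Tfpi2 lie between the dashed lines at 1.5-fold, and the interval of Tfpi alone leaves out 0.

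Some facts of the arrays bear on all of these values. The 9 measured hepatocyte markers had a mean level between 13.66 and 13.75 on every array, and Alb itself lay between 14.59 and 14.64, as the label of liver tissue implies. The 11 measured macrophage and Kupffer cell markers were all higher in Alb/AEG-1 tumours, with means of 7.10 to 7.56 on the wild-type and 7.51 to 7.99 on the Alb/AEG-1 arrays, which overlap. The 10 endothelial markers lay between 6.54 and 6.66 on all arrays, and the 4 platelet and megakaryocyte markers between 5.29 and 5.53. Mean levels of the 4 cholangiocyte, 9 stellate cell and fibroblast, 7 T and NK cell, 3 B cell, 4 neutrophil and 3 erythroid markers differed by 0.07, 0.02, -0.16, 0.08, 0.06 and -0.06. The neutrophil mean joins markers of opposite direction. S100a8 and S100a9 differed by 0.53 and 0.36 with overlapping groups. Mpo and Csf3r differed by -0.35 and -0.28, lower in every Alb/AEG-1 tumour (limma adjusted p = 0.596 and 0.614). In bulk tissue, fewer cells of a type and less RNA per cell cannot be told apart. Of the 32 genes, 23 lay above the 75th percentile of probe set levels and 3 (F13a1, Plat and Plau) below the 25th. The highest value on any array was 14.86, and whether saturation near that limit narrows the differences of the brightest genes was not tested.

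F12 itself, the zymogen that autoactivates on negatively charged surfaces, had 1 probe set. It read 10.58, 11.07 and 9.82 in the wild-type tumours, against 10.61, 10.65 and 10.67 in the Alb/AEG-1 ones. The 3 wild-type tumours therefore lay on both sides of the 3 Alb/AEG-1 tumours, which lay close together. The difference was 0.15 ± 0.27 log2 (SE, n = 3 per group; limma adjusted p = 0.877, 95% interval -0.48 to 0.79), a ratio of 1.11. The difference depended on single wild-type arrays. It turned to -0.18 (95% interval -0.55 to 0.19) when the low wild-type replicate 3 was left out. It rose to 0.44 (95% interval -0.06 to 0.95) when the high wild-type replicate 2 was left out.

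Among the 32 genes F12 had the widest spread over wild-type tumours. Its SD was 0.63 over the 3 wild-type and 0.03 over the 3 Alb/AEG-1 arrays. Over all genes, 1.4% had a wild-type SD at least as large. The medians over the 32 genes were 0.11 for wild-type and 0.086 for Alb/AEG-1 arrays, and 0.12 for both over all genes. With 3 arrays per group an SD is poorly known, and the difference between the 2 SDs was not tested. For F12 the difference was 0.05 among the mice of lower number and 0.23 among those of higher number. The highest and the lowest wild-type value both came from mice of higher number.

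**Figure D2:**
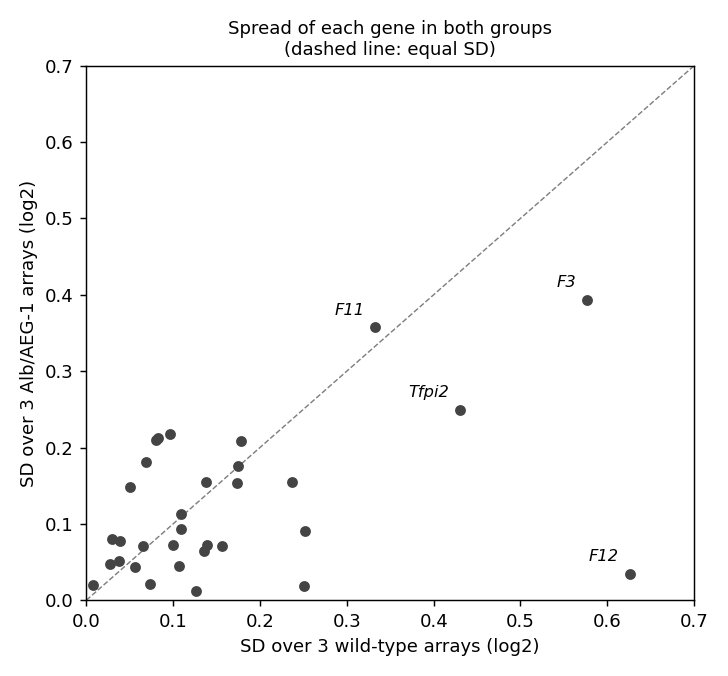
SD over the 3 wild-type arrays (log2, horizontal axis) against the SD over the 3 Alb/AEG-1 arrays (log2, vertical axis), 1 point for each of the 32 genes. F12 lies far to the right at the bottom (0.63 and 0.03), while F11 lies close to the dashed line of equal SD.

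The promoters of F12 and of the fibrinogen genes are shown because F12 carried the widest wild-type spread and the 3 fibrinogen genes are direct neighbours on chromosome 3. Each is the RefSeq window of 300 bases (GRCm38.p6), 250 before and 50 after the annotated start, read 5′ to 3′ along the gene's own strand. Capitals mark a match to GTTAAT or its reverse complement ATTAAC, the short site of the hepatocyte factor HNF1.
F12 (chr13:55426755-55427054, minus strand): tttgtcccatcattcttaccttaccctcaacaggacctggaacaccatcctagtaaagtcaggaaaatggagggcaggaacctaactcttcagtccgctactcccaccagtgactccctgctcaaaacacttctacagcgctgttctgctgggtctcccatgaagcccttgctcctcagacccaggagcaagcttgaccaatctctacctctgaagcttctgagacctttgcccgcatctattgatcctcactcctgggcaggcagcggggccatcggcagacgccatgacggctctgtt
Fgg (chr3:83007474-83007773, plus strand): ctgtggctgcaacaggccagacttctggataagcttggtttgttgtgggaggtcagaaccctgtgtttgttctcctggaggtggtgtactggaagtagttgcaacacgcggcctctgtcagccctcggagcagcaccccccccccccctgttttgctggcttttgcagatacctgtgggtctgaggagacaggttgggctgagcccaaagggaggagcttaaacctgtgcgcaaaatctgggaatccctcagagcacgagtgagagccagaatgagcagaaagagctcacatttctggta
Fga (chr3:83025903-83026202, plus strand): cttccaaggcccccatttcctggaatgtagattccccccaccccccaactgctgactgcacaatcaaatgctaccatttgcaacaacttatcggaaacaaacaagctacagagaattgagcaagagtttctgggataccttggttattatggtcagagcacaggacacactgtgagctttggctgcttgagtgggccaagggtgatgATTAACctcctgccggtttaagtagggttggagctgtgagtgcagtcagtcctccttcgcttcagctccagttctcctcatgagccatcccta
Fgb (chr3:83049814-83050113, minus strand): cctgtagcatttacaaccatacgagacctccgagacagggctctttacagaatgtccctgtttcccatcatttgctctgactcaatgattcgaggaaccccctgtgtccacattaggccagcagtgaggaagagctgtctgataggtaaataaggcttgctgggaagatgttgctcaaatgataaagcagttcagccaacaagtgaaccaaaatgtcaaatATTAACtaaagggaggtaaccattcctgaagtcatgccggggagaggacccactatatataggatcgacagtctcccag

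A match began 43 bases before the start of Fga and 29 bases before that of Fgb, and none lay in these windows of F12 and Fgg. Of the 24 measured members with a promoter window, 6 held it (F2, F13b, Fga, Fgb, Proz and Tfpi2). These 24 genes have 28 windows, of which 7 (25%) held a match, against 7.1% of all 32851 windows, and the difference was not tested. The 2 matching windows of Tfpi2 overlap and hold 1 site. The other motifs, searched on both strands, were CAAAGTCCA (HNF4, 0.475% of windows, 0 members), TTGCGCAA (C/EBP, 0.183%, 0 members) and TGACCTTTG (nuclear receptors, 0.478%, F7 and F9). Longer forms were the C/EBP motif with A before and T after it (0.00609% of windows), the palindrome GGTCA and TGACC with any 3 bases between them that estrogen receptors bind (0.07%), and 2 copies of AGGTCA with 1 base between them (0.0396%), each with 0 members. The first of these contains TTGCGCAA. A match is a run of letters and no proof of binding.

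Fibrinogen, the precursor of the clot's fibrin, is built from the products of Fga, Fgb and Fgg. Fgb read 13.82, 13.54 and 13.71 in wild-type against 14.04, 13.89 and 13.73 in Alb/AEG-1 tumours, and the groups overlapped (difference 0.20 ± 0.11, limma adjusted p = 0.653). Fgg read 13.84, 13.70 and 13.77 against 14.00, 13.91 and 13.65 (difference 0.09 ± 0.11). Fga read 13.10, 12.99 and 13.15 against 13.06, 13.24 and 12.83 (difference -0.04 ± 0.12). For all 3 chains the third Alb/AEG-1 tumour was the lowest of its group, and for all 3 the second wild-type tumour was the lowest of its own.

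The prothrombin gene F2 and the genes of the vitamin K-dependent proteases had differences near 0. F2 differed by 0.06 ± 0.09, F7, whose product binds tissue factor, by 0.00021 ± 0.13, F9, the gene deficient in haemophilia B, by -0.012 ± 0.10, and F10, whose product makes thrombin as part of prothrombinase, by -0.05 ± 0.08. The other F10 probe sets differed by -0.03 (one that may bind related transcripts) and 0.14. F7, F10 and Proz are neighbours on chromosome 8. F11, the gene of the protease between factor XII and factor IX, differed by 0.06 ± 0.22, but by -0.05 among the mice of lower and by -0.19 among those of higher number.

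Klkb1 and Kng1 encode the partners of factor XII in the contact system, prekallikrein and kininogen, from which kallikrein frees bradykinin. Kng1 read 12.81, 12.95 and 12.85 in wild-type against 12.980, 12.995 and 13.021 in Alb/AEG-1 tumours, so that every Alb/AEG-1 tumour was the higher. The difference was 0.13 ± 0.08 (limma adjusted p = 0.663), and a dimmer Kng1 probe set gave -0.02 ± 0.09 with overlapping groups. Mice have a second kininogen gene of similar sequence, so the signal of Kng1 probes may include it. Klkb1 differed by -0.0025 ± 0.12.

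Among the cofactors, F5, which assists factor X, read 11.09, 11.25 and 11.36 in wild-type against 11.11, 11.12 and 10.99 in Alb/AEG-1 tumours. The highest values were both wild type, while wild-type replicate 1 lay among the Alb/AEG-1 values (difference -0.16 ± 0.10, limma adjusted p = 0.668). The other F5 probe set gave -0.22 ± 0.10 (adjusted p = 0.623), also overlapping, and the difference of the first was 0.03 among the mice of lower and -0.32 among those of higher number. F8, the gene deficient in haemophilia A, made mainly by endothelial cells, differed by 0.11 ± 0.13. Vwf, its carrier and an endothelial and platelet protein, read 4.70, 4.63 and 4.69 in wild-type against 4.78, 4.78 and 4.87 in Alb/AEG-1 tumours. The highest wild-type and the lowest Alb/AEG-1 value, 4.70 and 4.78, left a small gap at a level below the median probe set (difference 0.14 ± 0.08, limma adjusted p = 0.655).

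F3, which encodes tissue factor, the membrane receptor that starts clotting, was the second gene of wide spread. It read 4.92, 5.78 and 4.68 in wild-type against 5.19, 5.01 and 5.76 in Alb/AEG-1 tumours. One tumour of each group, wild-type replicate 2 and Alb/AEG-1 replicate 3, lay well above the others, and the groups overlapped. The difference was 0.19 ± 0.30 (limma adjusted p = 0.863). It was 0.52 with wild-type replicate 2 left out and -0.03 with either wild-type or Alb/AEG-1 replicate 3 left out. Within the lower mouse numbers it was 0.18, and within the higher 0.53. Factor XIII cross-links fibrin. F13a1, its catalytic subunit, made by macrophages and megakaryocytes, differed by 0.09 ± 0.12 at its low level, and F13b, its hepatic carrier subunit, by -0.10 ± 0.09. The macrophage markers given above moved in the same direction as F13a1, and their part in its value was not tested.

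**Figure D3:**
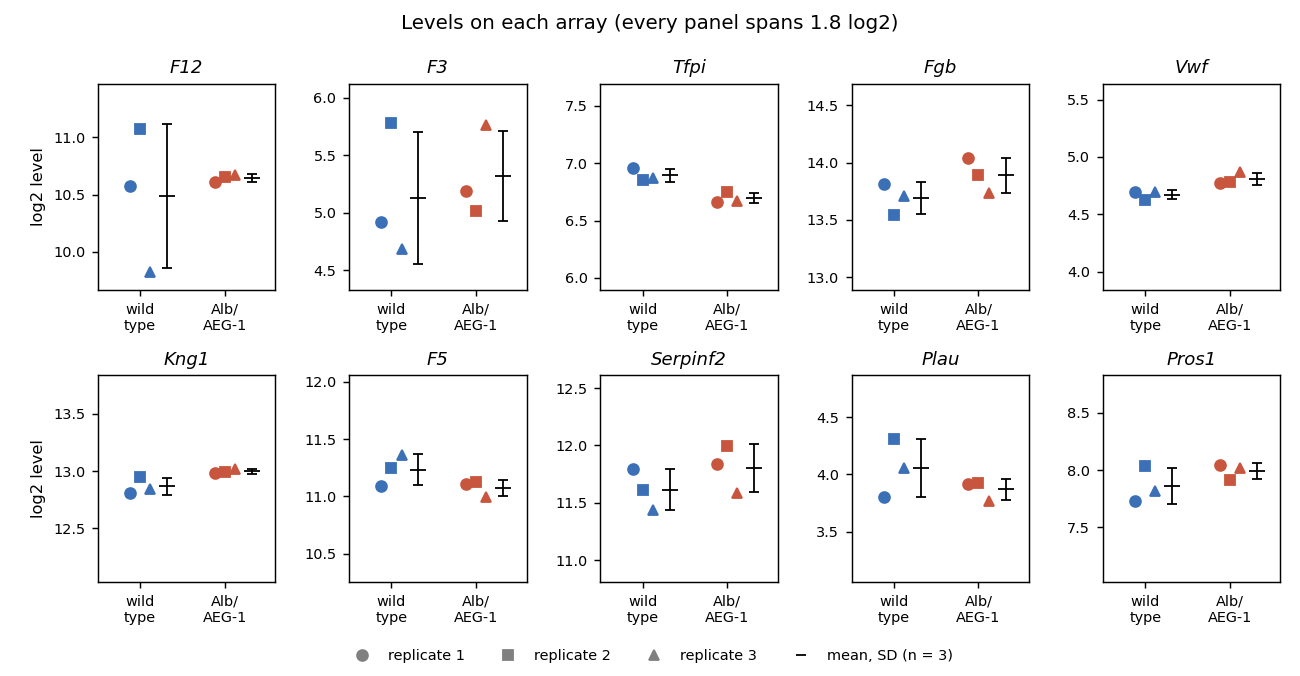
Level on each array (log2, vertical axis; every panel spans the same width) of F12, F3 and the 8 genes with the smallest unadjusted p, by group, with the mean and SD of 3 arrays beside the points. The wild-type points of F12 and of F3 are spread widely, and the groups are apart in Tfpi, Vwf and Kng1.

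Tfpi, the gene of the inhibitor that blocks factor VIIa with tissue factor, had the smallest unadjusted p of the 32. Its brightest probe set read 6.96, 6.85 and 6.87 in wild-type against 6.67, 6.74 and 6.67 in Alb/AEG-1 tumours. Every Alb/AEG-1 value lay below every wild-type value. The difference was -0.20 ± 0.08 (95% interval -0.38 to -0.02, limma unadjusted p = 0.0375, adjusted p = 0.611), a ratio of 0.871. Among the mice of lower number it was -0.25, and among the others -0.19. The 2 dimmer Tfpi probe sets differed by -0.16 ± 0.18 and -0.08 ± 0.16 with overlapping groups. Within the lower mouse numbers they differed by -0.53 and -0.40, and within the higher by 0.18 and 0.16. With the 3 averaged, the difference was -0.15 (limma adjusted p = 0.763). The unadjusted p of the brightest probe set ran from 0.0464 to 0.112 as each array was left out, and stayed below 0.05 only without Alb/AEG-1 replicate 2. Tfpi2, which encodes a related protease inhibitor, differed by 0.20 ± 0.22 with a wild-type SD of 0.43. Leaving out each array moved it between 0.056 and 0.445, the latter with wild-type replicate 1 dropped (limma unadjusted p = 0.0240, adjusted p = 0.396).

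The remaining inhibitors had differences near 0 by their brightest probe sets. Serpinc1, encoding antithrombin, the main inhibitor of thrombin, lay between 13.66 and 13.70 on every array (difference -0.00018 ± 0.07). Serpind1, encoding heparin cofactor II, differed by 0.03 ± 0.08. Serpina10, the protein Z-dependent inhibitor of factor Xa, differed by -0.04 ± 0.10 with probes that related transcripts may also bind. Proz, its cofactor protein Z, differed by -0.04 ± 0.09, while a dimmer Proz probe set read 8.34, 8.52 and 8.44 in wild-type against 8.56, 8.74 and 8.57 in Alb/AEG-1 tumours. That set gave 0.19 ± 0.09 (limma adjusted p = 0.633) with groups apart, so the Proz probe sets differed in direction.

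Protein C, activated by thrombin on thrombomodulin, cleaves factors V and VIII. Its gene Proc differed by -0.03 ± 0.08 and Thbd, the gene of thrombomodulin, by -0.13 ± 0.12. Pros1, encoding its cofactor protein S, read 7.73, 8.03 and 7.82 in wild-type against 8.05, 7.91 and 8.02 in Alb/AEG-1 tumours, overlapping in the range of 7.91 to 8.03 (difference 0.13 ± 0.10, limma adjusted p = 0.718).

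On the side of clot removal, Plg, the plasminogen gene, lay between 13.25 and 13.34 on every array (difference 0.02 ± 0.08). Its activators were dim. Plat, encoding tissue plasminogen activator, differed by 0.0080 ± 0.09. Plau, encoding urokinase, read 3.80, 4.31 and 4.05 in wild-type against 3.92, 3.92 and 3.77 in Alb/AEG-1 tumours. The highest values were wild type and the groups overlapped (difference -0.18 ± 0.13, limma adjusted p = 0.703; -0.13 ± 0.14 by the other probe set). Plaur, its receptor, differed by -0.12 ± 0.14.

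Serpinf2, encoding antiplasmin, the fast inhibitor of plasmin, read 11.80, 11.61 and 11.44 in wild-type against 11.83, 11.996 and 11.58 in Alb/AEG-1 tumours. The groups overlapped, and the lowest values of each group came from the higher mouse numbers (difference 0.19 ± 0.14, limma adjusted p = 0.702). Hrg, a plasma glycoprotein that binds plasminogen and heparin, differed by -0.0038 ± 0.10 with probes that related transcripts may also bind.

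Several of these genes separated by the number in the sample's title. The titles give each sample a number, taken here as that of the mouse. The numbers of 3 mice lie below 100, namely 66 for the first wild-type mouse and 76 and 80 for Alb/AEG-1 mice 1 and 2. The 3 others (wild-type mice 2 and 3, Alb/AEG-1 mouse 3) follow each other just above 100. The labels do not say what separates the ranges. The 3 arrays of the lower range lay wholly beyond those of the higher for 9 of the 32 genes (28.1%), against 16.4% of all genes and 23.7% of the genes above the 75th percentile of levels, where 8 of these 9 lie. Of the 23 members above that percentile, these 8 make up 34.8%, and the difference from the share of all such genes was not tested. These genes are named because of this separation and are given as a description.

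Tfpi2 read 10.55, 10.41 and 10.39 in the lower and 9.84, 9.77 and 9.96 in the higher numbers. F11 read 9.18, 9.04 and 9.20 in the lower and 8.90, 8.51 and 8.52 in the higher numbers, and Klkb1, its neighbour on chromosome 8 and a close relative, 11.08, 11.16 and 11.02 against 10.91, 10.92 and 10.73. All 3 genes were higher in every tumour of the lower numbers, whatever its genotype. In the limma fit with both genotype and number range, the difference of the higher minus the lower numbers was -0.59 ± 0.10 for Tfpi2 (adjusted p = 0.215), -0.54 ± 0.13 for F11 (adjusted p = 0.344) and -0.26 ± 0.10 for Klkb1 (adjusted p = 0.511). In that fit the genotype difference was 0.0015 for Tfpi2, -0.12 for F11 and -0.09 for Klkb1. Fgb, Fgg and Serpinf2 were likewise higher in the lower numbers, with differences of -0.21, -0.20 and -0.30 in the same fit. Their genotype differences there were 0.13 for Fgb, 0.018 for Fgg and 0.09 for Serpinf2, smaller than without the term. Hrg, Thbd and Serpinc1 were higher in the higher numbers. Without a genotype term, the mean of the hepatocyte markers differed by 0.0032 between the ranges, and that of the macrophage markers by -0.18. Most Alb/AEG-1 tumours, in which macrophage markers were higher on average, lie in the lower range, so the second value mixes number range with genotype. In the fit with both, single macrophage markers ran from -0.25 (C1qb) to 0.40 (Marco).

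**Figure D4:**
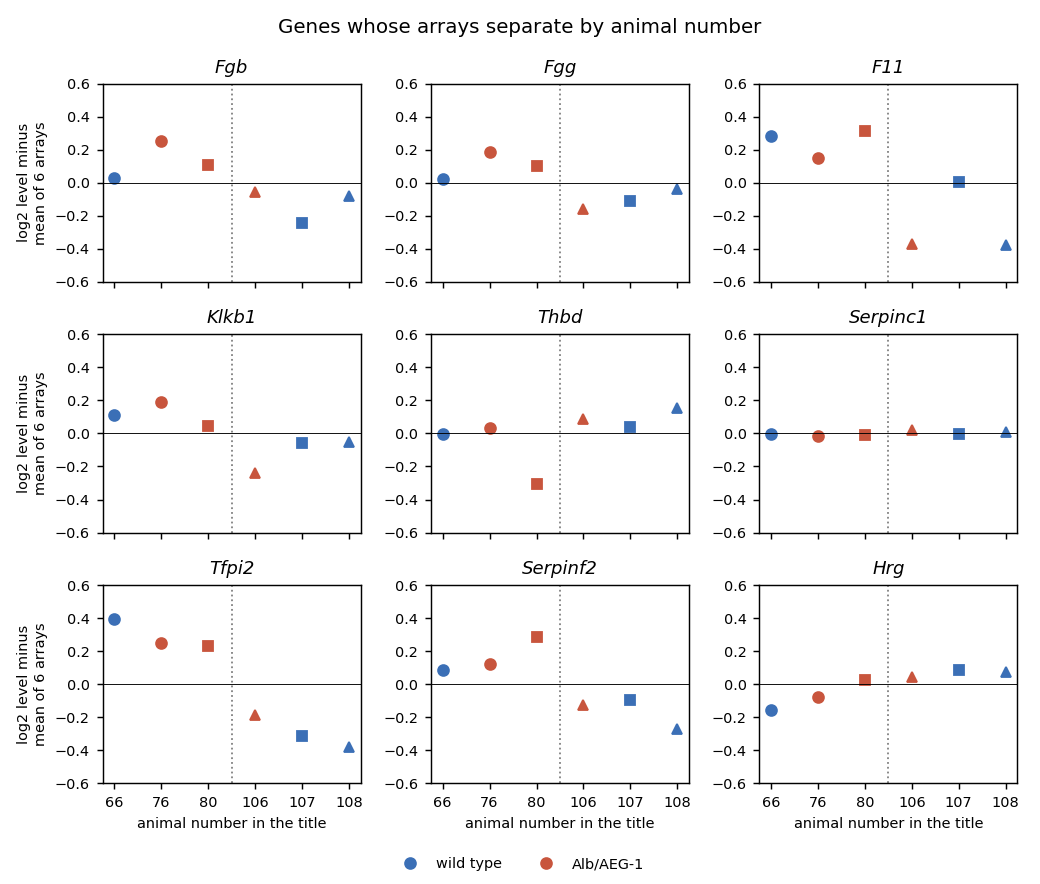
Level on each array minus the mean of all 6 (log2, vertical axis) for the 9 genes whose arrays separate by the number in the sample's title (horizontal axis), in colour by genotype; the dotted line parts the lower from the higher numbers. Tfpi2 and F11 span the most, and the 6 values of Serpinc1 lie within 0.04. Numbers are in order, not to scale.

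Other genes of the pathway came from a list of 84, of which 68 were measured. With limma 0 of them passed the adjusted threshold, and 6 (8.82%, 4 higher and 2 lower) had an unadjusted p below 0.05, again near the share of all genes. The median difference over the 68 was 0.026, and the groups did not overlap for 12 (17.6%, against 15.1% of all genes). By role, the genes at that unadjusted p, which 8.33% of all genes reached, were 1 of 5 in the vitamin K cycle and its substrates, 0 of 3 for secretion of factors V and VIII, 0 of 12 other inhibitors, 1 of 11 protease receptors, 0 of 7 other plasma proteases, 2 of 7 fibrin-binding proteins, 2 of 11 platelet genes and 0 of 12 hepatic transcription factors.

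Anxa2, whose product with S100a10 binds plasminogen at the cell surface, differed by 1.13 ± 0.18 (limma adjusted p = 0.382) and read 7.37, 7.10 and 7.04 in wild-type against 7.98, 8.67 and 8.24 in Alb/AEG-1 tumours. S100a10, named for this pairing, differed by 0.55 and overlapped between groups, with 10.78, 9.34 and 9.80 against 10.35, 10.74 and 10.47. Fgl2, a membrane protein with prothrombinase activity, differed by 0.68 ± 0.26. Tgm2, a transglutaminase related to factor XIII, differed by 0.34 ± 0.14 with probes that related transcripts may also bind. The groups overlapped for both genes. Tgm2 was also higher in every tumour of the lower mouse numbers, and its genotype difference was 0.22 in the fit with number range. Clec1b, a podoplanin receptor of platelets that Kupffer cells also express, differed by 0.43 ± 0.17, also with overlapping groups. The macrophage markers were likewise higher on average in the Alb/AEG-1 group, with array means that overlapped. Their part in the Fgl2 and Clec1b values was not tested. Gp1bb, a subunit of the platelet receptor for von Willebrand factor, differed by -0.37 ± 0.11. It was lower in every Alb/AEG-1 tumour, with 6.00, 6.32 and 6.04 in wild-type against 5.65, 5.73 and 5.86 in Alb/AEG-1 tumours. Mgp, a matrix protein that vitamin K-dependent carboxylation activates, differed by -0.78 ± 0.32, with 5.80, 5.52 and 6.87 in wild-type against 5.16, 5.23 and 5.47 in Alb/AEG-1 tumours. Of these genes, the 6 other than S100a10 had limma adjusted p values between 0.382 and 0.618.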

How the data were processed

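RNA had been extracted with Trizol, labelled with biotin and hybridized to Affymetrix arrays, per the labels' protocols. The authors made the deposited log2 levels with RMA, per the submitters' processing notes. RMA in its usual form corrects background, quantile-normalizes arrays and summarizes by probe set. Its version and settings are not given in the sources used here. Array medians lay within 0.0289 log2. The number of arrays limits the precision.

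The 64 control probe sets were left out. Symbols came from the platform annotation, and 20351 of the 20380 probe sets with 1 symbol had their gene ID in the RefSeq table (GRCm38.p6). Coordinates are those of the printed promoter windows only. Groups follow the genotype labels. Replicate numbers follow accession order. The labels do not state that samples come from separate mice beyond their different titles, and p-values measure the spread between samples. Array pairs correlated between 0.987 and 0.993 over probe sets.

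The test was the 2-sided moderated one of limma 3.58.1 (R 4.3.3; lmFit and eBayes), fitted on all 22626 probe sets with Benjamini-Hochberg adjustment over all of them. The fit was checked on simulated data with independent noise, equal spread in both groups and planted changes of 2-fold or more. It was not checked for unequal spread or for differences as small as those of the members. Plots used matplotlib 3.10.9 (Python 3.11.15). Members, lists and tests were chosen with earlier results of these data known. Every member was to be named, with all arrays given for F12, the 8 smallest unadjusted p and any SD of at least 0.5, then the 6 pathway genes of smallest p; 1 item is not reported here. S100a10, the genes that follow the sample number and the 1.5-fold interval count were added after their values were seen. Alternatives were moderation, normalization, filters, the probe set rule, array weights, the number range as a term and leaving out each array.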

Additional observations from a re-analysis of the deposited data

How the results depend on the processing

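Of the 32 genes, 0 passed the adjusted threshold in any fit with a test (lowest limma adjusted p 0.396, Tfpi2 without wild-type replicate 1). The count of all probe sets past it was 1 in the reported fit, 2 with a trended prior variance or with probe sets averaged by gene, 0 with the number range as a term, and 0 to 1 leaving out each array. Members at an unadjusted p below 0.05 numbered 0 with the trended prior or averaged probe sets and 0 to 2 leaving out each array, the 2 being Tfpi2 and Plau with wild-type replicate 1 dropped. Members without overlap numbered 1 with averaged probe sets (14.7% of all genes) and 3 to 12 leaving out each array, namely 12 when wild-type replicate 1 was dropped, 8 for Alb/AEG-1 replicate 3 and 6 for wild-type replicate 2, since fewer arrays separate more often (of 12393 genes, 1869 with all 6 arrays and 3971, 3531 and 2728 in these cases). Members with intervals within 1.5-fold numbered 26 to 29 leaving out each array (79.5% to 84.8% of all genes), 22 of the 25 left without dim probe sets (83.0%) and 30 with the number range (88.7%). Pathway genes at an unadjusted p below 0.05 numbered 3 without dim probe sets and 4 to 9 leaving out each array. The median difference of members was 0.070 for mice of lower and -0.030 for mice of higher number, and -0.0037 to 0.046 leaving out each array.

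Differences of several genes turned sign, among them F12 and F3 with their wide wild-type spread, and the cause was not tested. With quantile normalization Fga was 0.0027 and F7 -0.032. With median centring F9 was 0.0010, Klkb1 0.010, Serpinc1 0.012 and Hrg 0.0087. With averaged probe sets, which bring in dimmer ones, F10 was 0.021 and Proz 0.073. With array weights F7 was -0.018, Klkb1 0.028 and Plat -0.0014. With the number range F11 was -0.12, Serpinc1 0.0070, Plat -0.0027 and Hrg 0.047. Leaving out each array, F12 ran from -0.18 to 0.44, F3 from -0.031 to 0.52, F11 from -0.11 to 0.26, Fga from -0.14 to 0.073, F7 from -0.087 to 0.098, F9 from -0.064 to 0.054, Klkb1 from -0.098 to 0.12, F8 from -0.0090 to 0.24, F13a1 from -0.0044 to 0.18, Proc from -0.068 to 0.013, Proz from -0.11 to 0.018, Serpina10 from -0.11 to 0.035, Serpinc1 from -0.012 to 0.0078, Serpind1 from -0.013 to 0.063, Plat from -0.034 to 0.063 and Hrg from -0.082 to 0.038. No paired analysis was possible because the labels give replicates no shared numbers. For dim genes such as Plat, Plau and F13a1, signal over background limits what differences can be seen.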

Other observations

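Transcription factors of hepatic clotting genes are given as values by the number in the sample's title, chosen after they were seen. Of the 12 measured, 5 had arrays that did not overlap between the lower and the higher numbers (41.7%, against 16.4% of all genes and 23.7% of genes above the 75th percentile of levels, where 10 of the 12 and all of the 5 lie). The difference from these shares was not tested. Among the 5, Stat3 and Nr2f2 differed by -0.21 and -0.22, higher minus lower numbers, in the limma fit with genotype and number range. Cebpb, the gene of C/EBP beta, a factor of the acute phase response, read 9.49, 10.35 and 9.51 in the lower and 11.28, 10.77 and 10.65 in the higher numbers. Nr0b2, the gene of the bile acid-induced repressor SHP, read 9.30, 8.82 and 9.81 in the lower and 7.83, 8.52 and 8.16 in the higher numbers. Nr1h4, the gene of the bile acid receptor FXR, read 8.999, 9.23 and 9.13 in the lower and 9.39, 9.48 and 9.39 in the higher numbers. In the limma fit with genotype and number range the differences of the higher minus the lower numbers were 1.13, -1.14 and 0.32 (adjusted p = 0.366, 0.366 and 0.437), so that none of these 3 passed over all probe sets. The genotype differences of Cebpb, Nr0b2 and Nr1h4 were -0.35, 0.38 and -0.04 without that term, with overlapping groups, and turned sign to 0.030, -0.0011 and 0.070 with it.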
